A study of Drosophila melanogaster with 2 samples.

Results

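The 8 Hox genes of Drosophila melanogaster, lab, pb, Dfd, Scr, Antp, Ubx, abd-A and Abd-B, were described by the Hr78 ChIP-seq summits that lay nearest to their start sites or inside their spans. A summit is the base of highest signal in a peak. It was assigned to a Hox gene if the nearest protein-coding start site, at any distance, was that gene's, or if it lay within the gene from first to last annotated base. By this rule the Hox genes held 13 of the 5723 summits of the optimal list, the peaks that passed the authors' reproducibility threshold, and 94 of the 30000 summits of the pooled list, called on both replicates together. The genes are 8 of 13945 protein-coding genes of the annotation. They were chosen by measured values, since none had an optimal summit within 1 kb of a start site, so their distances, locations and signals are a description and were not tested.

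Hox genes encode homeodomain transcription factors that give each segment its identity along the head to tail axis. In the fly they stand in a pair of clusters, the Antennapedia complex (lab, pb, Dfd, Scr and Antp) and the bithorax complex (Ubx, abd-A and Abd-B). Their long introns and intergenic stretches hold enhancers that act over long distances, insulators that separate these enhancers, and response elements through which Polycomb group and trithorax group proteins keep each gene off or on. Hr78 is an orphan nuclear receptor, and receptors of its family bind hexamers related to AGGTCA.

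The study had 1 group of 2 biological replicates, numbered 1 and 3, of embryos aged 8 to 16 h and of both sexes. The embryos were of the strain Hr78-GFP, a transgenic line with a stable C-terminal eGFP fusion to Hr78. Both replicates carried the same fusion and came from 1 donor line, and the promoter that drives the transgene is not given in the sources used here. Chromatin was sonicated to 200 to 800 bp, and the fusion was pulled down through its tag by anti-GFP antibody, so the peaks are those of the fusion protein. Because whole embryos were used, strong binding in few cells and weak binding in many cannot be told apart, and no summit can be placed in a segment. The files hold peaks and no read counts, so the sequencing depth is unknown. Signal is the peak caller's own value against a control alignment. The optimal list spanned signals of 272 to 22397, with a median of 441, and consisted of the 5723 highest peaks of the pooled list, whose median was 118. Each replicate list held 30000 peaks, the same number as the pooled list. The lowest signals were 45.7 in the pooled list, 29.3 in replicate 1 and 23.7 in replicate 3. A place without a peak in a list may therefore hold a weaker one.

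All 13 Hox summits of the optimal list lay in introns, and none was within 1 kb of a Hox start site. Of the 13, 9 were inside the Hox gene spans and 4 were outside them, in introns of other genes. The intronic share over all optimal summits was not computed, so nothing is read from this location. Of the 8 genes 7 held at least 1 optimal summit by the rule, while 22.1% of all protein-coding genes did. For a summit within 1 kb of a start site the counts were 0 of the 8 Hox genes and 16.5% of all genes. Long genes held summits more often. Among the 1977 genes that span at least 10 kb, a limit set after the data had been seen, 56.3% held an optimal summit by the rule and 31.9% had one within 1 kb. A summit by the rule with none within 1 kb was found at 7 Hox genes, 25.0% of these long genes and 8.23% of all genes. Since the rule used these values, the shares are given beside each other and nothing is read from them.

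**Figure D1:**
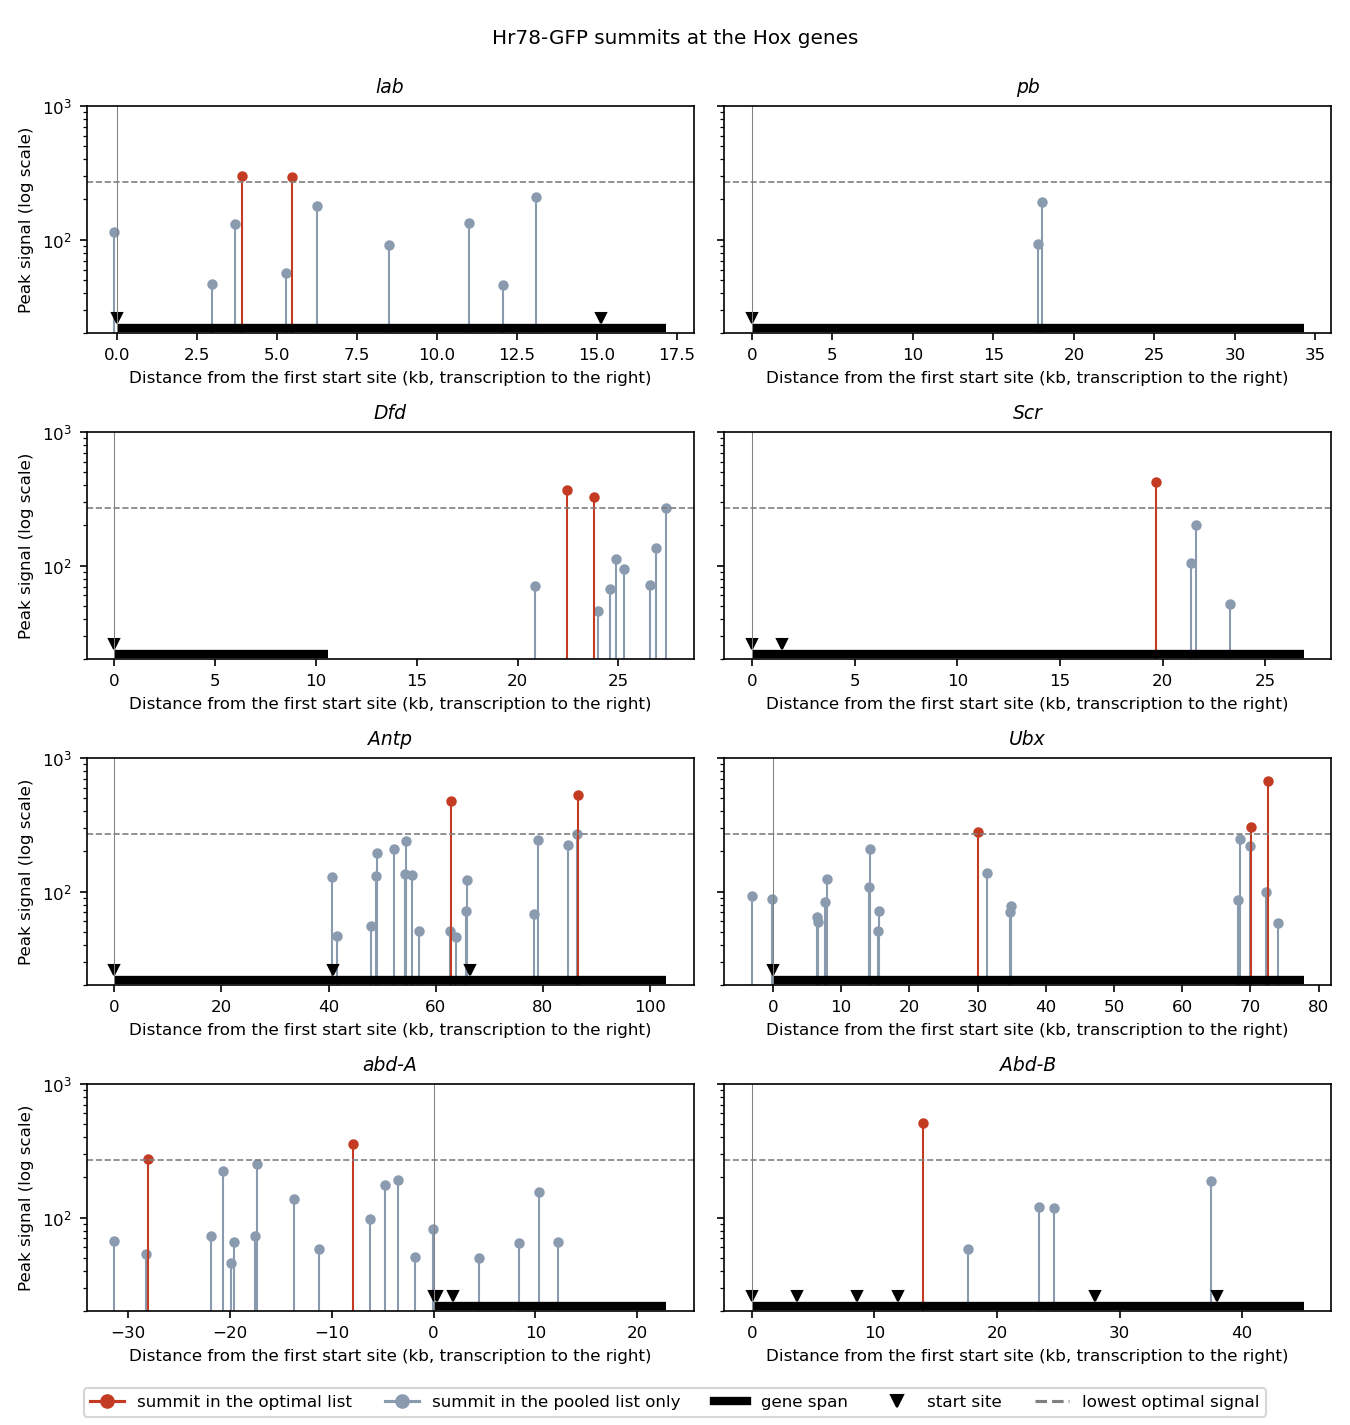
Signal of every pooled summit assigned to each Hox gene (log scale) against its distance in kb from the gene's first start site, with transcription to the right. Red points are the 13 summits in the optimal list and grey points the other 81; the dashed line marks the lowest optimal signal, 272, black bars the gene spans and triangles the start sites.

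The windows of 50 bases to each side of the summit are shown for the summits with the highest signals (Ubx and Antp), for the summit nearest to a start site (Abd-B), and for a contrast in base composition and in hexamers (lab, Scr and abd-A). They are RefSeq sequence of the plus strand of dm6, with the summit as base 51. Capitals mark matches to searched motifs on either strand. For nuclear receptors these were the hexamer AGGTCA with its 3 relatives, the first being AGTTCA, the second of them GGGTCA and the last of them GGTTCA, and the shared core, GGTCA. For homeodomain proteins the motif was TAATTA, and for Hox proteins with the cofactor Exd it was TGATNNAT. For the GAGA factor it was GAGAG, for the Polycomb recruiter Pho it was GCCAT, and for GATA factors it was AGATAA or else AGATAG, and likewise TGATAA or else TGATAG. Some motifs overlap, since GGTCA is part of AGGTCA and likewise of GGGTCA. The words CGATA and then TTTATG, a motif of Caudal, were also searched but are left in lower case.
lab, chr3R:6673075-6673175: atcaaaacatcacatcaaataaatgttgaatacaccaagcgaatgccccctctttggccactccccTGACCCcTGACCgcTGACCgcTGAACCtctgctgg
Scr, chr3R:6830277-6830377: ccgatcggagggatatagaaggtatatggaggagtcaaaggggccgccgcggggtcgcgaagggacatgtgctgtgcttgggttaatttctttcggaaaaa
Antp, chr3R:6912685-6912785: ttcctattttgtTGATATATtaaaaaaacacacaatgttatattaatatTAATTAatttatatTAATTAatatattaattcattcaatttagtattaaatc
Ubx, chr3R:16661803-16661903: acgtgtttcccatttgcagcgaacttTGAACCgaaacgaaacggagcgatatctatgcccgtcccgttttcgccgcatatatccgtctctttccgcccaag
abd-A, chr3R:16837946-16838046: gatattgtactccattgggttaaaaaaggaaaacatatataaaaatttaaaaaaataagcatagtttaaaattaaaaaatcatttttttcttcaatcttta
Abd-B, chr3R:16958243-16958343: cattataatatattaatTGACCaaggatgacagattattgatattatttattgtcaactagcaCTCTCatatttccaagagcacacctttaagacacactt
These windows range widely in base composition. GC content was 11.9% in the Antp window and 17.8% in the abd-A window, and it was 51.5% in the lab and Ubx windows and 53.5% in the Scr window. Over the 13 windows the median GC content was 41.6%, against 42.6% over all 5723 optimal windows.

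In the Antennapedia complex, lab, which acts in the head and in the midgut endoderm, spans 6661427 to 6678590 on 3R (minus strand, FBgn0002522). Its first intron of 2 held a pair of optimal summits, at 6674696 and 6673125, which lay 3894 and 5465 bp downstream of the nearest start site. The summit at 6674696 had a signal of 297 in the pooled list, rank 5058 of 5723, and replicate signals of 182 in replicate 1 and 116 in replicate 3. The summit at 6673125 had a signal of 293, rank 5161, with 181 in replicate 1 and 211 in replicate 3. Both are low in the optimal list. At 6673125 the replicate 1 value belongs to a summit 471 bp away, since the nearest replicate 1 summit, 2 bp away, had 83.9.

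The gene pb, which specifies the adult mouthparts with Scr, spans 6707800 to 6742063 on 3R (minus strand, FBgn0051481) and is the Hox gene with no optimal summit. It held a pair of pooled summits in 1 intron. The higher, at 6724020 and 18043 bp downstream of the single start site, had a signal of 191, with 118 in replicate 1 and 83.0 in replicate 3. The lower, at 6724267, had 92.7. Neither replicate had a pb peak among its own 5723 highest.

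Dfd, a gene of the maxillary and mandibular segments, spans 6791836 to 6802428 on 3R (plus strand, FBgn0000439). Its optimal summits lay beyond the end of the gene, at 6814307 and 6815638, which is 22471 and 23802 bp downstream of its start site. Both were in an intron of the non-coding gene lncRNA:CR42651, and the summit at 6815638 was 741 bp from the start site of that gene. The signal at 6814307 was 370 (rank 3693), with 190 in replicate 1 and 194 in replicate 3. At 6815638 it was 328 (rank 4397), with 184 in replicate 1 and 180 in replicate 3. By rank within its own list, replicate 3 stood higher at both places, at 3080 and 3441 against 4489 and 4691 in replicate 1. All 10 pooled Dfd summits lay at least 20852 bp from the start site, so none was inside the gene.

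Scr, the gene of the labial and prothoracic segments and of the salivary glands, spans 6823120 to 6849981 on 3R (minus strand, FBgn0003339). Its optimal summit, at 6830327, was 18178 bp downstream of the nearest start site, in the last of 2 introns. The signal was 424 (rank 3033), with 231 in replicate 1 and 204 in replicate 3. The other 3 pooled summits of Scr lay farther downstream, and the highest of them, at 6828379, had a signal of 201.

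Antp, which specifies thoracic segments, is the longest of the 8 genes and spans 6896253 to 6999228 on 3R (minus strand, FBgn0260642). Its optimal summits were at 6912735, 20105 bp downstream of the nearest start site, and at 6936285, 3445 bp upstream of an inner start site and inside an intron of the longer transcripts. Both summits also lay within CG46458, another protein-coding gene. At 6912735 the signal was 525 (rank 2170), with 366 in replicate 1 and 168 in replicate 3. At 6936285 it was 479 (rank 2522), with 263 in replicate 1 and 223 in replicate 3. Antp had the 2 summits of the complex with the highest signals among those assigned to Hox genes. A neighbouring summit at 6912937, in the same intron but in a window of 53.5% GC, had a signal of 272 and rank 5731 in the pooled list, just below the optimal list.

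In the bithorax complex, Ubx, the gene of the posterior thorax and haltere, spans 16656623 to 16734426 on 3R (minus strand, FBgn0003944). The highest of the 13 summits stood near the far end of its long intron, at 16661853, 72573 bp downstream of its start site. The signal there was 673 (rank 1420), with 365 in replicate 1 and 311 in replicate 3. A summit at 16664342 had 305 (rank 4881), with 163 in replicate 1 and 155 in replicate 3. The replicate 3 value belongs to a summit 212 bp away, which lies 11 bp from a neighbouring pooled summit at 16664543. For both 16661853 and 16664342 the nearest protein-coding start site was that of modSP, a gene outside the complex, at 6191 and 8680 bp, so they belong to Ubx by its span. The summit at 16704403, 30023 bp downstream of the Ubx start, had 278 (rank 5552) and 154 in replicate 1. No replicate 3 peak overlapped it, and the nearest replicate 3 summit, 1355 bp away, had 55.7.

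The gene abd-A, which acts in the anterior abdomen, spans 16807214 to 16830049 on 3R (minus strand, FBgn0000014). Its optimal summits lay upstream of the gene, at 16837996 and 16858085, which is 7947 and 28036 bp before the nearest start site. Both are in introns of lncRNA:iab8 and of MSAmiP, a protein-coding gene that overlaps it, over the region known for the iab enhancers. At 16837996 the signal was 354 (rank 3955), with 205 in replicate 1 and 145 in replicate 3. At 16858085 it was 274 (rank 5661), with 166 in replicate 1 and 110 in replicate 3, and the microRNA gene mir-iab-8 starts 1743 bp away. This was the lowest of the 13 signals.

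Abd-B, which specifies the posterior abdomen and genital segments, spans 16927212 to 16972236 on 3R (minus strand, FBgn0000015) and has 6 start sites. Its single optimal summit, at 16958293, was 1988 bp downstream of 1 of them, the shortest such distance among the 13. The signal was 513 (rank 2252), with 363 in replicate 1 and 160 in replicate 3. Among the regions with a peak in both replicates, Abd-B and Antp at 6912735 had the ranks that differed most in favour of replicate 1, at 1619 and 1571 in replicate 1 against 4130 and 3827 in replicate 3.

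**Figure D2:**
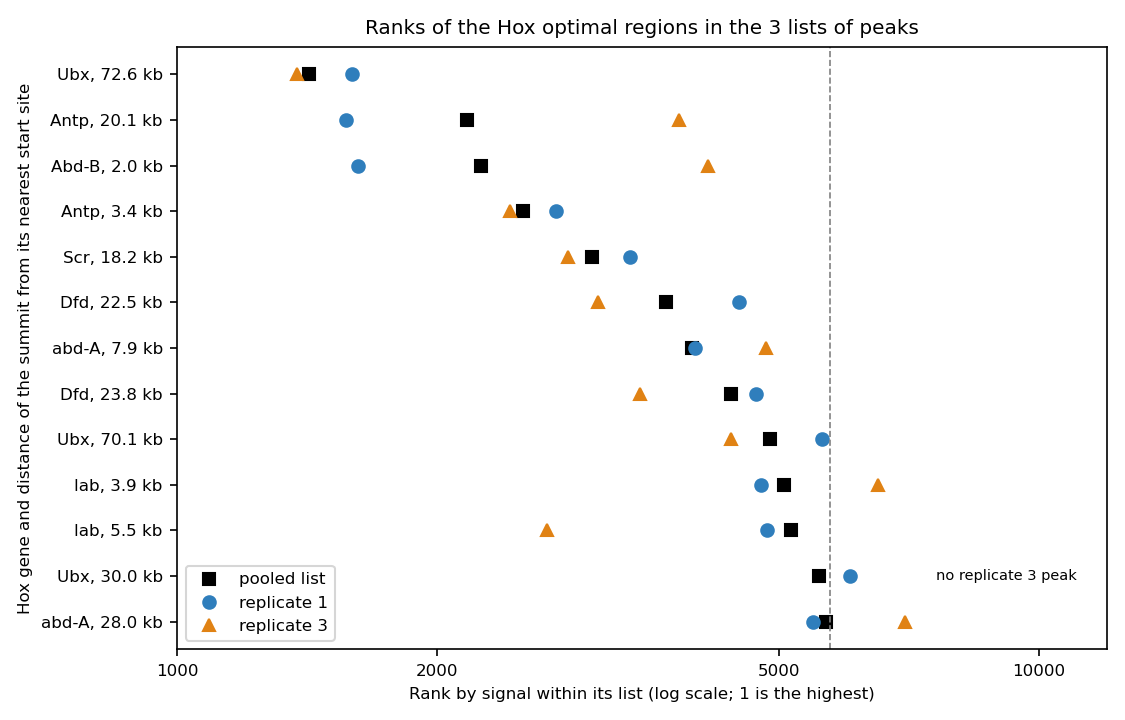
Rank by signal (log scale, 1 is the highest) of the 13 Hox regions in the pooled list, in replicate 1 and in replicate 3, each with its distance in kb from the nearest start site of its gene. The dashed line marks rank 5723, the length of the optimal list. The Ubx region at 30.0 kb had no replicate 3 peak. A replicate's rank is that of its highest peak overlapping the region.

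Of the 13 optimal Hox regions, 12 (92.3%) overlapped a peak of both replicates by at least 1 bp, against 99.1% of all optimal regions. Stricter rules gave lower counts in both replicates. The count was 11 with a replicate summit within 100 bp, 9 with 50% reciprocal overlap and 10 with the highest 5723 replicate peaks only. The shares over all optimal regions by these rules were not computed. Among the highest 5723 peaks of each replicate's own list, replicate 1 had 12 of the 13 regions and replicate 3 had 10. These counts and the signals below use the highest replicate peak overlapping the region, which can have its summit elsewhere. The largest gaps were 471 bp at lab, 6673125, in replicate 1 and 212 bp at Ubx, 16664342, in replicate 3. Counted within each replicate's own list, replicate 1 alone had 13 Hox summits among its highest 5723 peaks and replicate 3 alone had 14, in each case at 7 genes, with none within 1 kb of a Hox start site. Over the 12 regions with a peak in both, the signals of the replicates had a Spearman rho of 0.46, a description over regions that share 2 libraries. Over the 74 pooled Hox regions with a peak in both, rho was 0.82.

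The median signal was 354 over the 13 Hox summits, against 441 over the optimal list and 425 over its 3189 summits that lay over 1 kb from a start site. Of the 13, 4 were above the median of the list: Ubx at 16661853, both Antp summits and Abd-B. The median distance to the nearest protein-coding start site was 8680 bp for the 13, against 1342 bp for all optimal summits and 3993 bp for the 3189 that lay over 1 kb from a start site, as the choice of the genes required of the Hox summits. The median distance to the nearest start site of the Hox gene itself was 20105 bp. Distances over 20 kb from any protein-coding start site were found for 5 of the 13 (38.5%), against 3.16% of all optimal summits and 5.68% of those 3189. By side, 10 summits were downstream and 3 upstream of the nearest start site of their gene, and 9 were inside the Hox gene spans. The optimal Hox regions were also narrower, with a median width of 387 bp against 514 bp. The summits just inside the limit of the optimal list were Ubx at 16704403, with 278, and abd-A at 16858085, with 274. Just outside were Antp at 6912937, with 272, and Dfd at 6819194, with 269.

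**Figure D3:**
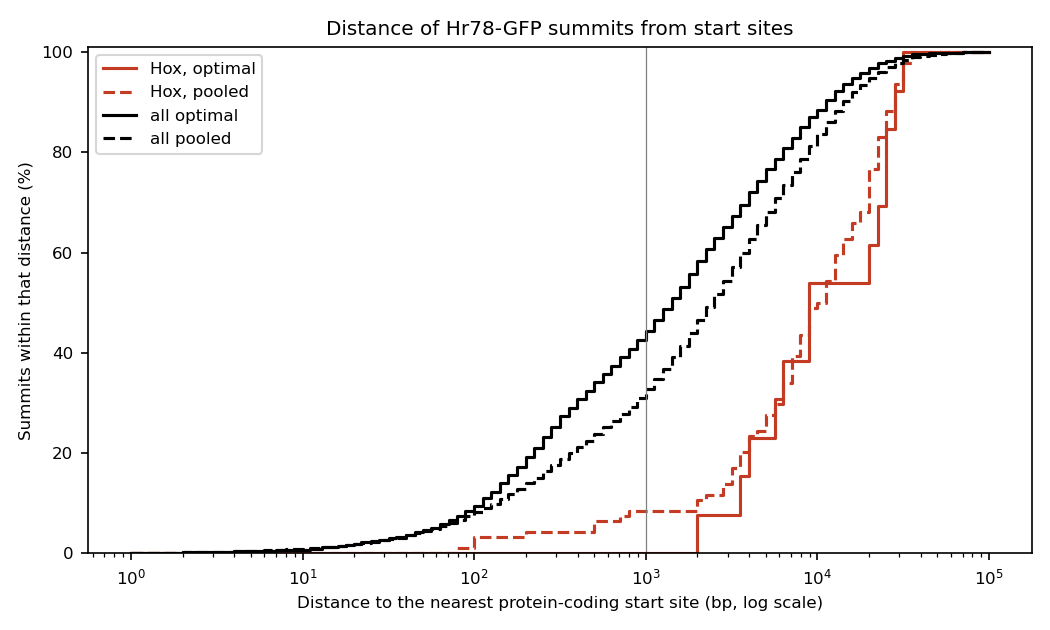
Share of summits (%) within a given distance (bp, log scale) of the nearest protein-coding start site, for the 13 Hox optimal and 94 Hox pooled summits (red) and for all optimal and all pooled summits (black). The Hox curves lie to the right, with medians of 8680 and 9923 bp against 1342 and 2336 bp; the vertical line marks 1 kb.

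In the longer pooled list all 8 Hox genes held a summit by the rule, against 42.2% of all genes and 75.2% of the genes that span at least 10 kb, as all 8 do. Of the 8, 5 (62.5%) had one within 1 kb of a start site, against 38.6% of all genes and 64.6% of those long genes. The 94 summits were uneven among the genes. There were 21 each at Ubx and abd-A, 20 at Antp, 11 at lab, 10 at Dfd, 5 at Abd-B, 4 at Scr and 2 at pb. Per 100 kb of the stretch that the rule gives to each gene, lab had 54.8 and abd-A 37.5, while Abd-B had 8.55 and pb 5.67. By location, 75 of the 94 were intronic, 10 intergenic and 8 in exons of non-coding genes, and 1 was in a 5′ UTR. The same shares over all pooled summits were not computed. In both replicates 74 of the 94 (78.7%) overlapped a peak, against 85.7% of all pooled regions. Of the 94, 13.8% were in the optimal list, against 19.1% of all pooled summits. The Hox median signal was 113, against 118.

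Near the Hox start sites the pooled list held 8 summits at lab, Antp, Ubx, abd-A and Abd-B, and none at pb, Dfd or Scr. That all of them were below the optimal list was fixed by the choice of the genes. Their signals ran from 46.6 to 187, with a median of 101.3, against 109 over the 7287 summits in the pooled list only that lay within 1 kb of any protein-coding start site. Beyond 1 kb, 15.1% of 86 Hox summits were in the optimal list, against 15.8% of all 20179 pooled summits. At lab the summit lay 93 bp upstream of the start site, with a signal of 114, 40.3 in replicate 1 and 77.99 in replicate 3. At Ubx it lay 92 bp upstream, with 88.6 in the pooled list, 41.6 in replicate 1 (at a summit 171 bp away) and 48.8 in replicate 3. At abd-A it lay 75 bp upstream, with 81.8 in the pooled list, 43.0 in replicate 1 and 34.5 in replicate 3. The abd-A replicate summits were 87 bp away in replicate 1 and 82 bp away in replicate 3. In the pooled list these 3 summits stood directly before start sites. All 3 were below the median signal of the replicate 1 list, 71.4, and in replicate 3 the lab summit was above the median of that list, 57.1, while those of Ubx and abd-A were below it.

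Antp had 4 of the 8 summits, 2 at each of its inner starts. The highest, 179 bp upstream of a start site, had a signal of 128, with 45.3 in replicate 1 and no overlapping peak in replicate 3. This summit was also 179 bp from a start site of CG46458, another protein-coding gene. Another, 465 bp upstream of the innermost start, had 121, with 100 in replicate 1 and 36.4 in replicate 3, at summits 141 and 163 bp away. The other two had 72.4 and 46.6, and that with 46.6, 725 bp downstream of a start site, overlapped no peak of either replicate. At Abd-B the summit lay 499 bp upstream of a start site with a signal of 187, the highest of the 8, but it had no overlapping peak in replicate 1 and 95.7 in replicate 3. That replicate 3 summit was 183 bp away, and the nearest one, 19 bp away, had 55.8. Of the 8 regions, 5 overlapped a peak of both replicates. The Antp regions with 121 and 72.4, both counted here, overlapped the same replicate peaks.

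Below the optimal list, the strongest further summits of each gene lay over 1 kb from its start sites, apart from the Abd-B summit with 187 described above. The pair for Antp had 272 and 242, for Dfd 269 and 137, for abd-A 253 and 223, and for Ubx 249 and 220. For lab the pair had 208 and 180, for Scr 201 and 105, for pb 191 and 92.7, and for Abd-B 187 and 120. The abd-A summit with 223 lay in a non-coding exon, 491 bp from the start of lncRNA:iab4. The lab summit with 180 overlapped no peak of either replicate. The nearest replicate summits were 315 bp away in replicate 1 and 728 bp away in replicate 3. Their peaks overlapped the region of the lab summit at 6673125.

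Sequence was not used to choose the genes. The hexamer AGGTCA lay within 50 bp of none of the 13 optimal Hox summits, which allows a share of up to 23.1% by a limit of 3 windows, against 10.03% of all optimal summits, 11.4% of those over 1 kb from a start site, and 2.66% of windows 500 bp downstream. Any of the 4 hexamers was found in 2 of 13 windows (15.4%, 95% exact interval 1.92 to 45.4), against 30.3% of all optimal windows. With 13 windows the interval includes both that share and the 12.1% of the downstream windows. A pair of hexamers in direct repeat with 1 base between them was found in none of the 13 or of the other 81 Hox windows, and in 1.36% of all optimal windows.

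The 2 windows with a hexamer were at lab and Ubx, and both are printed above. At lab, 6673125, the minus strand carries GGGTCA at 6673141 to 6673146 and GGTTCA at 6673162 to 6673167, with a pair of further GGTCA cores between them, so that 4 related words follow each other from 6673141 to 6673167, to one side of the summit. At Ubx, 16661853, GGTTCA is on the minus strand at 16661829 to 16661834, and a CGATA, the word bound by the insulator protein BEAF-32, covers the summit. CGATA was in 1 of the 13 windows, against 14.2% of all optimal windows. The Abd-B window holds 1 core GGTCA, chosen for the search after the windows had been seen. The core was present in 2 of the 13 Hox windows, against 23.5% of all optimal windows. The nearest AGGTCA to a summit was 52 bp away at Dfd, 6815638, and 92 bp away at Dfd, 6814307, and these were the 2 of 13 regions (15.4%) that held AGGTCA anywhere, against 28.5% of all optimal regions. At the other 11 summits it was 380 to 14553 bp away.

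Among the 81 Hox summits in the pooled list only, AGGTCA was within 50 bp of 3 (3.70%), against 4.95% of all 24277 such summits. They are shown with the start-site windows of Antp and Abd-B that carry GGGTCA, with capitals as before.
lab, chr3R:6675586-6675686: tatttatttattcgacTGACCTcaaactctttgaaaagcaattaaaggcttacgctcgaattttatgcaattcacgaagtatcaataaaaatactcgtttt
Antp, chr3R:6944787-6944887: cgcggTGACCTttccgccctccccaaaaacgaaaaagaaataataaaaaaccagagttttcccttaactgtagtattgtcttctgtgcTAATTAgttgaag
abd-A, chr3R:16825488-16825588: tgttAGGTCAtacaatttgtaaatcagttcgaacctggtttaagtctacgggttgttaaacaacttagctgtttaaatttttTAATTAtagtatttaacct
Antp, chr3R:6958499-6958599: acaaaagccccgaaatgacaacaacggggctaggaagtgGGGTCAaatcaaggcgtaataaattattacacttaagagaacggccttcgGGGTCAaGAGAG
Abd-B, chr3R:16934691-16934791: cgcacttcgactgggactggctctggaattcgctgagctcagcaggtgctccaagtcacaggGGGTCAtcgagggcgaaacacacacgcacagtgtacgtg
In the first and second the hexamer is on the minus strand and in the third on the plus strand, each 34 to 46 bp below the summit coordinate. The Antp window before the start site holds GGGTCA at both 6958538 to 6958543 and 6958588 to 6958593.

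Words bound by the factors that act on Hox genes were counted in the same windows. GAGAG, bound by the GAGA factor encoded by Trl, was in 3 of the 13 optimal Hox windows (23.1%, 95% exact interval 5.04 to 53.8) and in 21 of the other 81 (25.9%, 16.8 to 36.9), against 15.5% of all optimal windows and 13.8% of all other pooled windows. GCCAT, bound by the Polycomb recruiter Pho, was in 2 of 13 (15.4%) and in 23 of 81 (28.4%, 18.9 to 39.5), against 15.9% and 18.6%. TGATNNAT, a site of Hox proteins with their cofactor Exd, was in 1 of 13 and in 9 of 81 (11.1%), against 6.76% and 6.92%. The 1 optimal window was that of Antp, 6912735, where TAATTA also occurs at 2 places, and TAATTA was in no other of the 13, against 7.16% of all optimal windows. The GATA motif was in 2 of 13 (15.4%) and in 9 of 81 (11.1%), against 24.2% and 19.5%. TTTATG was in 1 of 13, against 10.97% of all optimal windows. The overlapping words and neighbouring windows are not independent, so the intervals cover counting only.

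**Figure D4:**
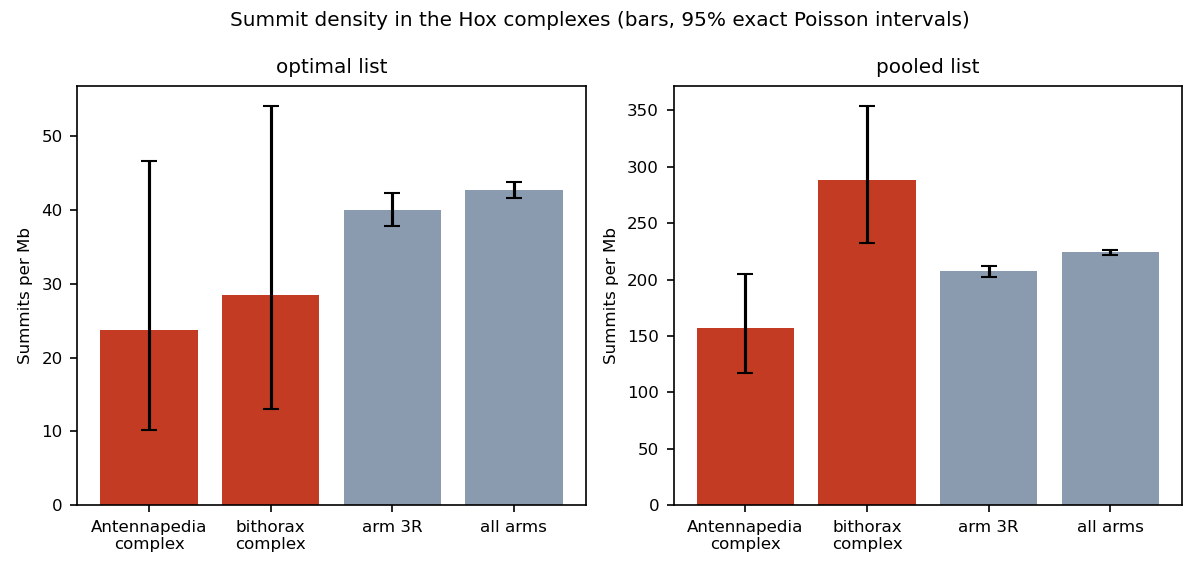
Summits per Mb of the optimal list (left) and the pooled list (right) over each Hox complex (red), arm 3R and all arms (grey), with 95% exact Poisson intervals as error bars. The optimal density was 23.7 and 28.5 in the complexes against 42.7 over all arms; the pooled density was 157 and 288 against 224.

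The Antennapedia complex, from lab to Antp over 338 kb, held 8 optimal and 53 pooled summits, and the bithorax complex, from Ubx to Abd-B over 316 kb, held 9 and 91. Optimal summits numbered 23.7 per Mb in the Antennapedia complex (95% exact Poisson interval 10.2 to 46.7) and 28.5 in the bithorax complex (13.0 to 54.1), against 42.7 over all arms, a value inside both intervals. Pooled summits numbered 157 per Mb (118 to 205) in the Antennapedia complex and 288 (232 to 354) in the bithorax complex, against 224 over all arms. The same order was seen in each replicate, with 95 bithorax and 52 Antennapedia peaks in replicate 1 and 100 and 53 in replicate 3. The pooled list was called on these same replicates, so this order is not separate evidence. Neighbouring summits are not independent, so the intervals cover counting only. The share of pooled summits that entered the optimal list was 9.89% in the bithorax and 15.1% in the Antennapedia complex, against 19.1% over all arms.

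Of the 17 optimal summits in the complexes, 4 were not assigned to a Hox gene. The highest, at 6763064 with a signal of 687 (rank 1365), lay 340 bp from the start of Ama, an immunoglobulin-domain protein gene between pb and Dfd. Of the 15 other protein-coding genes listed for the complexes, Ama was the 1 with an optimal summit within 1 kb of a start site, and the background share is the 16.5% given above. The remaining summits were in the bithorax complex, in introns of non-coding genes. In lncRNA:bxd, whose region regulates Ubx, the summit at 16771835 had 299 and lay 1354 bp from the start of that gene. In lncRNA:iab8 the summits at 16886932 and 16908006 had 321 and 276. Both were nearest to MSAmiP, and without that start site they would have been counted with the Hox genes, 15 in all.

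Genes that regulate Hox genes or are regulated by their products were looked up in the same lists of peaks. Over the lists of regulators and targets, 16 of 74 genes (21.6%) had one within 1 kb, against 16.5% of all protein-coding genes, and 40 (54.1%) had a pooled one, against 38.6%. Of the trithorax group 5 of 14 (35.7%) had an optimal summit within 1 kb. The highest were at Trl, encoding the GAGA factor, with a signal of 1955, and at the chromatin remodeller gene kis, with 502. Then came psq, with 350, and skd, with 323. Of 20 Polycomb group genes 3 (15%) did, the neighbouring pair ph-p, with 1572, and ph-d, with 1217, and Su(z)2, with 645. Of 8 insulator protein genes 2 (25%) did, Cp190, with 1186, and pita, with 284.

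Among 14 gap and pair-rule genes, which set the early Hox domains, 2 (14.3%) had an optimal summit within 1 kb, against 16.5% of all protein-coding genes. These were the pair-rule gene hry, with 768, and the gap gene gt, with 272, which is near the lowest optimal signal (rank 5705 of 5723). Among 16 targets of Hox proteins 4 (25%) did, against the same 16.5% and 31.9% of genes that span at least 10 kb. The highest was crb, a determinant of epithelial polarity, with 2076, then the appendage gene Dll with 441, the muscle tubulin gene betaTub60D with 383 and the salivary gland gene fkh with 310. With a pooled summit within 1 kb the count for targets was 13 of 16 (81.25%), against 38.6% of all genes and 64.6% of those that span at least 10 kb. Neither Hox cofactor gene, exd or hth, had an optimal summit within 1 kb, and hth had a pooled one with a signal of 157. Of a written list of non-coding genes of the complexes, the 7 found in the annotation had no optimal summit within 1 kb. Among them lncRNA:bxd, lncRNA:iab4 and lncRNA:iab8 had pooled ones with 209, 223 and 83.1. That list left out lncRNA:CR42651, whose start site lay 741 bp from the optimal Dfd summit at 6815638. The share over all non-coding genes was not computed.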

How the data were processed

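Hr78-GFP ChIP-seq of 2 replicates was deposited as peak lists: 1 for each replicate, 1 pooled and 1 optimal. The authors called peaks against a control alignment and thresholded the optimal list on the irreproducible discovery rate (IDR), per the deposited text files. Neither the caller and aligner nor the IDR threshold is given in the sources used here. The signal value per peak, on a coverage scale of its own in each list, is the authors' value as deposited, so signals were compared within a list or by rank. The q-values were deposited by the authors as −log10 q and were not used. Summit offsets are the authors' other deposited value. Coordinates are dm6 per the labels, given 1-based.

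Sequence came from RefSeq genome release 6, and start sites and spans from Ensembl annotation release 115 (BDGP 6.54). A replicate's value is that of its highest peak overlapping the region by at least 1 bp. Motifs were sought on both strands within 50 bp of the summit. Python 3.11.15, numpy 2.4.6, pandas 2.3.3, scipy 1.17.1 and matplotlib 3.10.9 were used, and the assignment was tested on simulated peaks. The members and gene lists were chosen with earlier results of these data known. Named were all 8 Hox genes and their optimal summits, their pooled summits within 1 kb of a start, the highest 2 others per gene, other genes of the complexes with an optimal summit within 1 kb, and up to 4 genes per further list. The optimal summits of the complexes at non-coding genes were named after their values were seen. With 1 group, no test was made. The files hold no read counts, so depth is unknown and intervals cover only the counting of peaks or windows. For 2 symbols the current name was looked up, and 1 listed non-coding gene was not found in the annotation.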

Additional observations from a re-analysis of the deposited data

How the results depend on the processing

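Of 65 values recomputed under 17 settings, 52 stayed within 1.5 times the reported count or within 1 SD of the replicate medians (580 bp). That SD comes from only 2 medians, which are themselves among the 65 values. Some values could not move. The choice of the genes fixed the 0 within 1 kb under settings that only remove optimal summits or narrow the window. The optimal Hox summits held no close pair, so leaving out close pairs could not change their values. With the higher part of the optimal list alone (signal above its median), 4 Hox summits remained at 3 genes, all 4 in both replicates, and their median distance to a Hox start site was 11775 bp. The reported median of 20105 bp was 18178 bp with the nearest start site only and also with the gene span only, and 13062.5 bp when start sites of all genes competed. With a window of 2 kb, 1 Hox gene, Abd-B, had an optimal summit near a start site. In the higher part of the pooled list by signal there were 45 Hox summits. AGGTCA was within 100 bp of 2 optimal Hox summits, and any of the 4 hexamers was within 50 bp of 2. Each replicate was left out in turn by taking the other's own highest 5723 peaks as the list. This gave 13 to 14 Hox summits at 7 genes, 0 of them within 1 kb. In each case 13 were found in both replicates. That count still used the replicate left out, and overlap with the list that gave the summits was certain in advance. The median distance was then 19079.5 to 19900 bp, AGGTCA was at 0 to 1 summits, and 16 to 20 regulators and targets had a summit within 1 kb. Without the MSAmiP start site, a setting chosen after seeing the data, there were 15 optimal and 113 pooled Hox summits. For values that moved, the cause was not tested. No paired analysis was possible because there was 1 group. What depth limits cannot be said, since the files give no read counts. For the pooled list, 3 of the 94 pooled Hox regions (3.19%) overlapped no peak of either replicate, against 0.97% of all pooled regions.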

Other observations

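The bithorax complex held more pooled summits than those assigned to its Hox genes. Of its 91 pooled summits 44 were assigned to no Hox gene, and of these 19 were nearest to MSAmiP, 13 to CG31275 and 12 to Glut3, with highest signals of 321, 269 and 299. In the Antennapedia complex 6 of 53 pooled summits were assigned to no Hox gene, and they were nearest, 2 each, to Ama and to the cuticle protein genes Ccp84Af and Ccp84Ag.

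Among the 94 pooled Hox summits there were 20 neighbouring pairs 150 to 250 bp apart, and 7846 among all 30000 pooled summits. The 13 optimal Hox summits held no such pair, and all 5723 optimal summits held 844. With 13 summits, nothing is read from the absence of pairs. Of the 13 optimal Hox windows 5 (38.5%) had under 35% GC, against 30.7% of all optimal windows. In 2 of the 13 (15.4%), Antp at 6912735 and abd-A at 16837996, most bases were marked as repetitive by the reference's lower-case letters, against 7.34% of all optimal windows. These values were seen in the data before they were set side by side, and their part in the signals was not tested.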
